A study of Chlamydomonas reinhardtii with 12 samples.

Results

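The gene described here is CHLRE_06g259900v5, the locus tag of ATPC, which encodes the gamma subunit of the chloroplast ATP synthase in the green alga Chlamydomonas reinhardtii. It was represented on a 2-colour cDNA microarray by 3 elements, each from a different clone, chosen because the array's annotation ties them to this locus. An element is 1 cDNA printed as 4 spots, and elements are called by the number of their first spot, here 644, 2007 and 2429. They are 3 of the 105 elements with a single locus and of the 2880 elements on the array, or 12 of 11520 spots.

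The chloroplast ATP synthase makes ATP from the proton gradient that photosynthetic electron transport builds across the thylakoid membrane. Its gamma subunit is the central shaft that turns inside the catalytic head, and in plants and green algae it carries a pair of cysteines through which thioredoxin switches the enzyme on in the light. The subunit is encoded in the nucleus and imported into the chloroplast. The same proton gradient acidifies the thylakoid lumen in excess light, which starts the formation of zeaxanthin from violaxanthin and the release of surplus light energy as heat.

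The study compared the wild-type strain CC-125 with the double mutant npq1 lor1, in which npq1 blocks the formation of zeaxanthin and lor1 that of lutein. Cells were taken from low light, after 1 h of high light and after 6 h of it, and each slide received total RNA of the wild type in 1 channel and of the mutant in the other. Every time point (3 in all) was sampled in 2 biological samples, and every sample was put on 2 slides with the dyes exchanged, which makes 12 slides. Low light cells of the same strains are the only reference for the shift, and the mutated genes themselves were not analysed here. The labels call the samples biological replicates and do not say whether they came from separate cultures, so p-values rest on the spread between these samples only. For the strain ratios and their changes, that spread was pooled over the time points and drawn toward the spread of all elements. In RNA of whole cultures, less transcript per cell and fewer cells that express the gene cannot be told apart.

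The values are log2 ratios of the channels. The labels give them as Cy3/Cy5 where wild type was in channel 1 and as Cy5/Cy3 where the mutant was, which is wild type over npq1 lor1 on every slide if channel 1 always carried Cy3. The labels do not state that dye, and the titles name the wild type first whichever strain was in channel 1. Read in this direction, a positive ratio would mean more transcript in the wild type. For slides with exchanged channels (36 pairs), the correlation over elements ran from -0.57 to 0.13, and for slides with the same strain in channel 1 (30 pairs) from 0.31 to 0.83. Between the exchanged slides of a single biological sample it ran from -0.47 to 0.13. Elements are not independent replicates. The direction therefore rests on the labels, and the values with the sign turned on the slides with the mutant in channel 1 are given further down. Spots with a value of exactly 0 were taken as not measured. They made up 7.36% to 43.4% of a slide, and the highest shares, 43.4% and 43.2%, belonged to biological sample 2 at 1 h and at 6 h, each with wild type in channel 1.

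All 3 elements could be measured on all 12 slides. Element 644 had 39 of its 48 spot readings, element 2007 had 45 and element 2429 had 46. The median number of readings at 0 over all elements was 4 of 48, against 9, 3 and 2 for these 3. The spread between copies on a slide had a median SD of 0.061 for element 644, 0.117 for element 2429 and 0.184 for element 2007. The copies of element 644 thus lay closest together, but it also lost the most of them.

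In low light the ratio, averaged over the exchanged slides, was above 0 for every element in both biological samples. The exchanged slides themselves differed in sign in every case except element 644 in sample 1, where they were at 0.32 and 0.13. In biological samples 1 and 2 the log2 ratio of element 644 was 0.23 and 0.13, that of element 2007 was 0.10 and 0.05, and that of element 2429 was 0.08 and 0.15. The means were 0.18 ± 0.06 (SD, n = 2) for element 644, 0.07 ± 0.03 (SD, n = 2) for element 2007 and 0.11 ± 0.05 (SD, n = 2) for element 2429. A ratio of 0.18, the largest in size of the 9 means over elements and time points that follow from the deposited signs, is a 1.13-fold difference.

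None of the 3 low light ratios passed the test. With limma's moderated test and Benjamini-Hochberg adjustment over all 2396 elements tested, 0 of 3 passed at the threshold of 0.05, where 0.334% of all elements did. At an unadjusted p under 0.05 there were 0 of 3 as well, against 7.97% of all elements. The adjusted p was 0.773 for element 644, 0.953 for element 2007 and 0.918 for element 2429. Element 644 stood higher than 97.5% of all tested elements in low light, element 2429 higher than 93.1% and element 2007 higher than 85.6%. These ranks rest on the deposited signs: with the sign turned they were 56.5%, 60.4% and 22.2% in the same order. The other 91 tested elements with a locus had a median of -0.03, and 36 of them were positive.

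After 1 h of high light the 3 elements no longer stood on the same side of 0. Element 644 had log2 ratios of 0.02 and -0.06 in samples 1 and 2, with a mean of -0.02 ± 0.05 (SD, n = 2). Element 2007 had -0.20 and -0.16, with a mean of -0.18 ± 0.03 (SD, n = 2). Element 2429 had -0.16 and 0.17, with a mean of 0.01 ± 0.24 (SD, n = 2). The biological samples of element 2429 thus disagreed in sign, while those of element 2007 were both negative. In sample 2, however, the value of element 2007 averaged slides at 0.11 and -0.42. The former, with wild type in channel 1, held readings at 0.83, -0.22 and -0.27.

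At 1 h, 0 of 3 elements passed limma's test, where 0.704% of 2272 elements did. Element 2007 had an unadjusted p of 0.0205 (1 of 3 elements under 0.05, against 11.8% of all elements), a 95% interval from -0.32 to -0.03 and an adjusted p of 0.311. The adjusted p was 0.973 for element 644 and 0.985 for element 2429. In biological sample 2 the slide with wild type in channel 1 held 3 readings of element 2429, at 1.29, 0.22 and 0.24, so a single spot set its mean of 0.58. With the median of the copies in place of the mean, the ratio of element 2429 at 1 h was -0.08.

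After 6 h of high light the means of all 3 elements were at or below 0. Element 644 had log2 ratios of 0.04 and -0.37, with a mean of -0.17 ± 0.29 (SD, n = 2), so its biological samples lay far apart. Element 2007 had -0.09 and -0.13, with a mean of -0.11 ± 0.03 (SD, n = 2). Element 2429 had 0.003 and -0.02, with a mean of -0.01 ± 0.02 (SD, n = 2).

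At 6 h, 0 of 3 elements passed limma's test, where 2.01% of 2139 elements did, and 0 of 3 had an unadjusted p under 0.05, against 21.6% of all elements. The adjusted p was 0.337 for element 644, 0.332 for element 2007 and 0.966 for element 2429. The mean of element 644 rested on biological sample 2, in which both slides were negative, at -0.29 and -0.46, the former from 2 spots. Without that sample its ratio was 0.04. Of the other 76 tested elements with a locus, 8 had passed at 6 h, all with negative ratios.

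**Figure D1:**
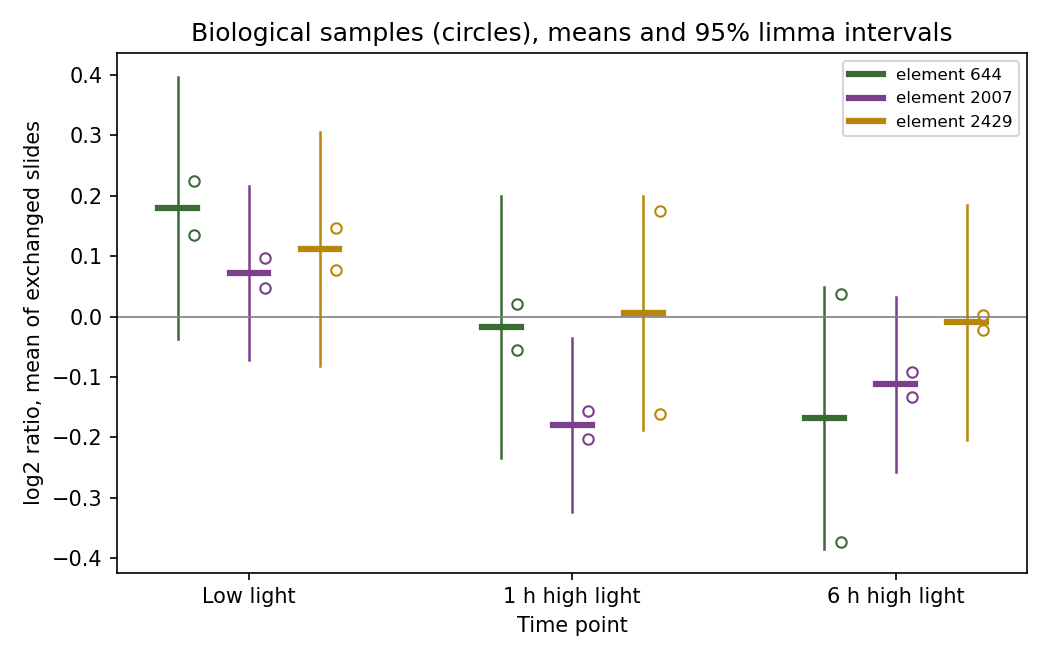
Log2 ratio (vertical axis) of the 3 elements of CHLRE_06g259900v5 at the 3 time points (horizontal axis). Circles are the 2 biological samples, thick bars their mean and thin lines limma's 95% interval; all low light circles lie above 0, and the interval of element 2007 at 1 h is the only one that does not reach 0.

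The intervals bound how large a difference between the strains could be. Over the 9 ratios (3 elements at 3 time points) the 95% limit farthest from 0 was 0.40 on the log2 scale, a 1.32-fold difference, for element 644 in low light. These intervals use the deposited signs and assume 1 spread per element over the time points. The adjusted p of the 9 ratios ran from 0.311 to 0.985.

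Whether the strain ratio moved during the shift was asked next. From low light to 6 h the mean ratio differed by -0.35 for element 644, by -0.18 for element 2007 and by -0.12 for element 2429 (later minus earlier), and for all 3 elements both 6 h samples lay below both low light samples. Such a drop without overlap occurred in 19.5% of the 2032 elements tested, and the 3 elements belong to 1 gene and share their slides. It rests on the deposited signs: with the sign turned, 0 of 3 elements showed it, and the changes were -0.01, -0.07 and 0.05 for elements 644, 2007 and 2429. With limma 0 of 3 changes passed, where 0.0492% of all elements did, and the adjusted p was 0.396, 0.468 and 0.713. Element 644 had an unadjusted p of 0.0309 (1 of 3 elements under 0.05, against 11.6% of all elements). The size of this change depended on which 6 h sample was used: it was -0.55 without biological sample 1 of 6 h and -0.14 without biological sample 2, whose slide with wild type in channel 1 was among those with most readings at 0. Leaving out biological sample 2 of 1 h as well cannot move this estimate, which uses only the low light and 6 h means.

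From low light to 1 h the differences were -0.20, -0.25 and -0.11 for elements 644, 2007 and 2429. These too rest on the deposited signs: with the sign turned they were 0.01, 0.15 and 0.23 in the same order. At the deposited signs both 1 h samples of elements 644 and 2007 lay below both low light samples, as in 17.5% of 2195 elements. For element 2429 the samples overlapped. With limma 0 of 3 passed, where 0.0456% of all elements did. Element 2007 had an unadjusted p of 0.0214 (1 of 3, against 5.15% of all elements) and an adjusted p of 0.730, and the others had 0.941 and 0.949. From 1 h to 6 h the differences were -0.15 for element 644, 0.07 for element 2007 and -0.02 for element 2429. With limma 0 of 3 passed, where 0.208% of 1925 elements did, and 0 of 3 had an unadjusted p under 0.05, against 9.09% of all elements.

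The mean of the 3 elements gives 1 value of the gene per biological sample. It was 0.13 and 0.11 in low light, -0.11 and -0.01 at 1 h, and -0.02 and -0.18 at 6 h. Both low light samples thus lay above the 4 samples of high light, as they did in 8.07% of the 1895 single elements measured in all 6 samples and for 2 of the 3 elements of the gene. With the sign turned this held for 0 of the 3 elements and not for their mean. The means per time point were 0.12 ± 0.02, -0.06 ± 0.07 and -0.10 ± 0.11 (SD, n = 2 each). Within a single biological sample the 3 elements had an SD of 0.05 to 0.18, so clones of the same gene on the same slides differed visibly from each other. With the 3 elements averaged into 1 row of the table before the fit, the change from low light to 6 h was -0.22 (SE 0.10, limma adjusted p = 0.444).

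The 3 elements were then compared with each other, as paired differences within the 6 biological samples. Element 2007 was lower than element 2429 by 0.11 ± 0.12 (SD, n = 6), in 5 of 6 samples, with an exact two-sided sign-flip permutation p = 0.0625 and an adjusted p of 0.188 over the 3 pairs. On slides with wild type in channel 1 alone this difference was -0.36 ± 0.16, below 0 in 6 of 6 samples (exact p = 0.0312, adjusted p = 0.0938), and on those with the mutant there it was 0.14 ± 0.23, above 0 in 5 of 6 (SD, n = 6 each; exact p = 0.156, adjusted p = 0.469). Element 644 was higher than element 2007 by 0.07 ± 0.16 (SD, n = 6), in 5 of 6 samples, with an exact p = 0.375. The exception was biological sample 2 at 6 h, where element 644 lay 0.24 below element 2007. The mean of element 644 minus element 2429 was -0.04 ± 0.21 (SD, n = 6), with 3 positive and 3 negative differences and an exact p = 0.656. With wild type in channel 1 alone, element 644 was 0.21 above element 2007 and 0.15 below element 2429. Of the 3 pairs 0 passed. The smallest p that 6 samples allow is 0.0312, which the adjustment over 3 pairs turns into 0.0938 when a single pair reaches it, so no pair could have passed alone.

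The 3 pairs of elements were closer than the median pair of different loci, but many such pairs were closer still. The root-mean-square difference over the 6 biological samples was 0.162 between elements 644 and 2007, 0.197 between 644 and 2429 and 0.154 between 2007 and 2429. Over the 2771 pairs of elements of different loci its median was 0.222, and 27.2%, 41.1% and 23.7% of those pairs were closer than the 3 pairs in the same order. Across the 12 slides, Pearson's r was 0.60 between elements 644 and 2429, 0.40 between 644 and 2007 and 0.29 between 2007 and 2429, against a median of 0.06 over pairs of different loci. Of those pairs, 12.6%, 23.5% and 30.4% had a higher r in the same order. These are descriptions over slides that share RNA extracts and dye orientation. The only other locus with a pair of elements measured in all 6 samples, CHLRE_03g199800v5, had a root-mean-square difference of 0.133 and r = 0.03.

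The elements differed in how they behaved on slides with exchanged channels. Element 2429 was positive on all 6 slides with wild type in channel 1, from 0.16 to 0.58, and negative on all 6 slides with npq1 lor1 there, from -0.56 to -0.04. This pattern in all 6 biological samples occurred in 13.2% of the 1895 elements measured in all 6. Element 644 was positive on 5 of 6 and negative on 5 of 6. Its exceptions were the low light slide of biological sample 1 with the mutant in channel 1, at 0.13, and the 6 h slide of biological sample 2 with wild type there, at -0.29. Element 2007 was positive on 2 of 6 slides with wild type in channel 1 and negative on 4 of 6 with the mutant, so it followed neither.

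**Figure D2:**
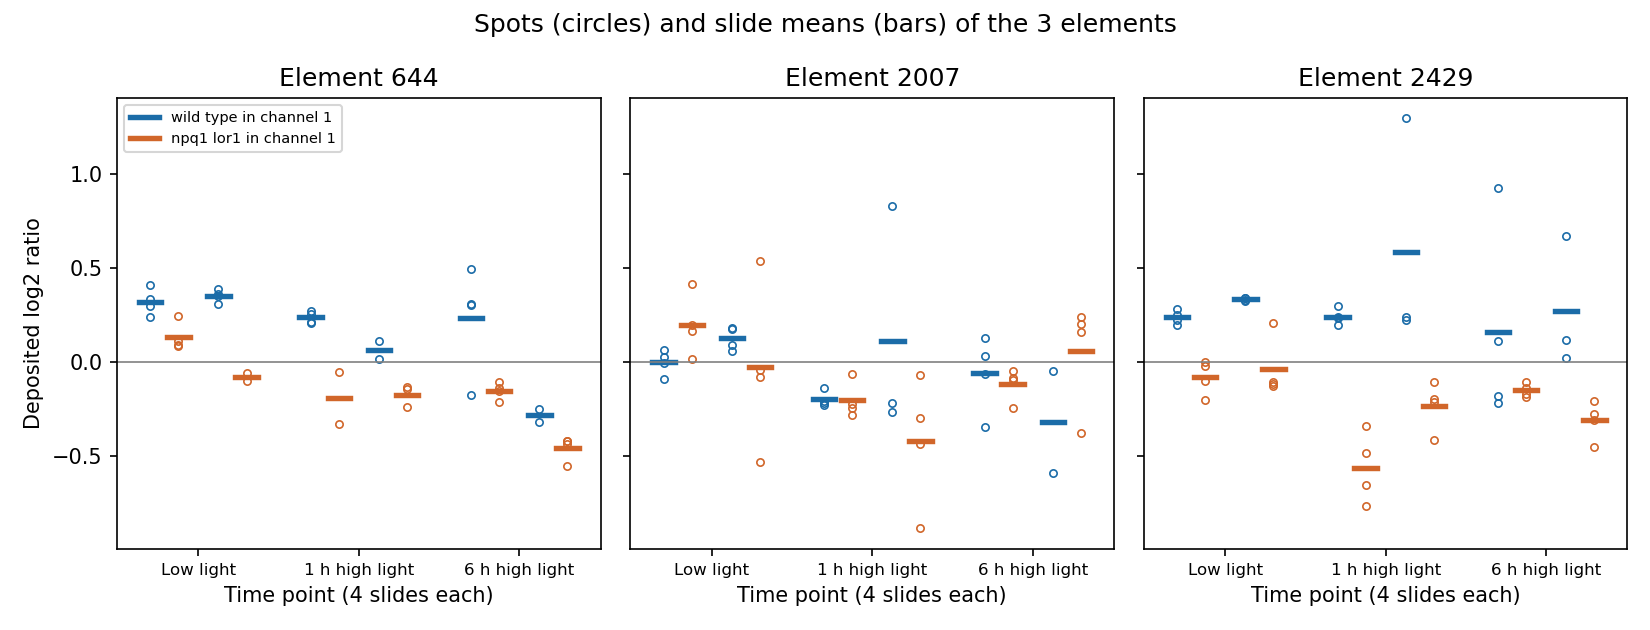
Deposited log2 ratio (vertical axis) of every measured spot (circles) and the mean per slide (bars) for the 3 elements, by time point (horizontal axis), with biological sample 1 to the left of 2 and colours for the strain in channel 1. For element 2429 all 6 blue bars lie above 0 and all 6 orange bars below, while the bars of element 2007 mix.

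For element 2429 this opposition was largest in size at 1 h. On slides with wild type in channel 1 alone, element 2429 had a log2 ratio of 0.41 at 1 h (limma adjusted p = 0.0423), and on slides with npq1 lor1 there it had -0.40 (adjusted p = 0.0386). Both passed, with opposite signs, so that the mean of 0.01 averages values that cancel. The first of these rests on the spot at 1.29: with the median of the copies it was 0.24 (adjusted p = 0.163) and did not pass. In the same single-orientation tests 10.7% and 17.3% of all elements passed at 1 h, and elements 644 and 2007 did not. In low light 0 of 3 elements passed with either orientation, where 1.74% and 19.5% of all elements did, and at 6 h 0 of 3, where 20.3% and 0.842% did. In such tests any effect of the dye stays in the value.

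The part of the signal that changes sign between exchanged slides was measured by turning the sign of the slide with npq1 lor1 in channel 1 before the average, and is called the opposing part. It was 0.27 ± 0.12 for element 2429 and 0.15 ± 0.06 for element 644 (SD, n = 6 each), positive in 6 of 6 biological samples for both. For element 2007 it was 0.01 ± 0.16 (SD, n = 6), positive in 4 of 6. These values describe the same slides again and were added after the values were seen. Exact sign-flip tests over the 6 samples gave an adjusted p of 0.0469 for elements 2429 and 644 and of 0.781 for element 2007. These tests were against 0, and the share of all elements that would pass them is not given here. Over the 1895 elements the median of the opposing part was 0.09 and 72.0% were positive, so values above 0 were common. Element 2429 was above 84.7% of them, element 644 above 64.2% and element 2007 above 30.9%. With each slide centred on its median, the opposing part was 0.15 for element 2429 (6 of 6 positive) and 0.04 for element 644 (4 of 6). With the running median of neighbouring elements subtracted on each slide it was 0.25 for element 2429 (6 of 6 positive) and 0.02 for element 644 (4 of 6). For element 2007 it was -0.10 under both. Under neither did an element have a sign-flip adjusted p under 0.05, and that of element 2429 was 0.0938 under both. Its exact p stayed at 0.03125, the smallest that 6 samples allow. The adjusted p rose because element 644 no longer reached that value, and an element that reaches it alone cannot pass.

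If the slides with the mutant in channel 1 had not been turned as the labels describe, the opposing part would be the strain ratio. Element 2429 would then have a ratio of 0.17 in low light, one of 0.41 after 1 h and one of 0.22 after 6 h, of which those at 1 h (limma adjusted p = 6.56e-04) and 6 h (adjusted p = 0.0410) passed. With the median of the copies the value at 1 h was 0.31 (limma adjusted p = 0.00737), where 697 of 2272 elements passed. The fit on the mean of the copies called 35.1%, 35% and 22.4% of all elements at the 3 time points in order. It called elements 644 and 2007 at none of them. Whether the opposing part is an effect of the dye or of the strain cannot be told apart from these values without the labels.

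**Figure D3:**
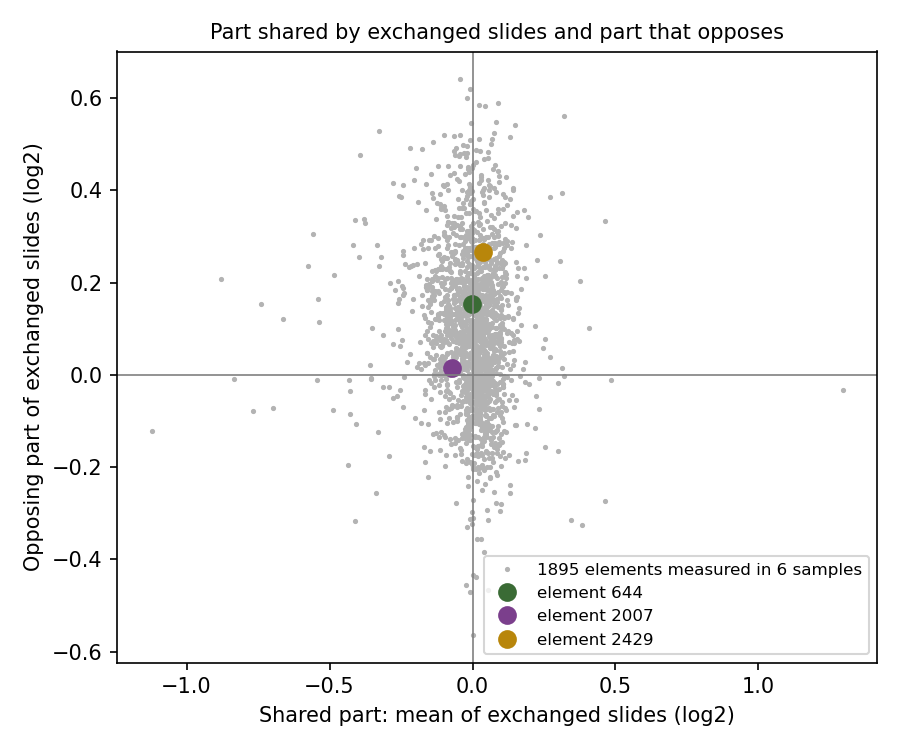
Each point is 1 of the 1895 elements measured in all 6 biological samples, with the mean of exchanged slides (horizontal axis, log2) against the opposing part (vertical axis, log2), both averaged over 6 samples. The 3 elements of CHLRE_06g259900v5 lie within 0.08 of 0 horizontally and spread from 0.01 to 0.27 vertically.

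Averaged over all 6 biological samples, the shared part was close to 0 for every element, at -0.002 ± 0.21 for element 644, -0.07 ± 0.12 for element 2007 and 0.04 ± 0.12 for element 2429 (SD, n = 6 each). The median size over all 1895 elements was 0.05. By its ratio over the 6 samples, the gene was nearest to CHLRE_06g267200v5, with a root-mean-square difference of 0.101 from the mean of the 3 elements. CHLRE_02g091700v5, CHLRE_12g485050v5, CHLRE_12g511850v5 and CHLRE_10g450400v5 followed, at 0.117 to 0.120. The median over the 72 other elements with a locus and all 6 samples was 0.185. Only 1 of these 5 loci, CHLRE_02g091700v5, was also among the 5 nearest with the sign turned, where CHLRE_06g267200v5 had rank 15 of 72, so the order rests on the deposited signs. At those signs the gene itself lay 0.111 from a ratio of 0 throughout, about as far as from these loci. The mean ratio of CHLRE_06g267200v5 was -0.02 in low light, -0.04 after 1 h of high light and -0.12 after 6 h.

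A list of other ATP synthase, photosystem and carbon fixation genes could not be formed, since the annotation used here gives locus tags without names, and the other elements with a locus stand in for it. In low light 0 of 91 of these passed with a positive and 1 with a negative ratio. At 1 h 0 of 90 passed in either direction, and at 6 h 0 of 76 passed with a positive and 8 with a negative ratio. Of the changes over time, 1 passed, from 1 h to 6 h.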

How the data were processed

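The authors deposited log2 ratios after normalization with SNOMAD, per the labels. These are Cy3/Cy5 ratios where wild type was in channel 1 and Cy5/Cy3 ratios where the mutant was. SNOMAD's options, background correction, centring and spot filter are not stated there, and scanner intensities were not analysed here. Column medians without zeros ran from -0.17 to 0.17. Copies 2880 spot numbers apart were averaged (at least 2 spots), then exchanged slides, which share RNA extracts and count as 1 replicate. limma 3.58.1 in R 4.3.3 fitted 3 time means to 6 values per element (prior degrees of freedom 5.66, prior SD 0.108), with Benjamini-Hochberg adjustment over all elements tested. The fit was tested on simulated data with independent normal noise and without effects of dye, slide or position, so that test does not cover such effects. Elements were compared, and the opposing part was tested against 0, by exact sign-flip tests over the 6 samples. The number of biological samples, 2 per time point, limits the precision. Whether biological sample numbers pair the samples across time points was not settled (r of deviations between time points 0.23, -0.02 and -0.15). The main fit took no replicate block, and an alternative did. The members, lists and tests were chosen with earlier results of these data known; the opposing part was added after the values were seen. Named were the 3 elements, the ATP synthase and photosynthesis loci that the annotation names (0 could be matched), and the 5 loci with the smallest root-mean-square difference. All 100 locus tags were found in the reference table of assembly Chlamydomonas_reinhardtii_v5.5. No build is named for the array, so no coordinates are given. No sequences of the clones were used here.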

Additional observations from a re-analysis of the deposited data

How the results depend on the processing

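Of 371 values of the 3 elements recomputed under alternative settings, 318 had the same sign and the same side of limma's threshold as reported, 48 changed sign and 5 passed with the reported sign; the cause was not tested. With both dye orientations averaged at their deposited signs, 0 of 3 elements passed at every time point and for every change. Zeros kept as measured gave 0.0097 for element 644 and -0.030 for element 2429 at 1 h, 0.0039 for the change of element 2429 from 1 h to 6 h, and 0.0043 for element 644 minus 2429. The median of the copies gave -0.077 for element 2429 at 1 h and 0.031 for element 644 minus 2429, and centred slides gave -0.0012 for element 2429 at 1 h. On slides with wild type in channel 1, 1 of 3 elements passed at 1 h; there element 644 had 0.15 at 1 h, element 2429 had 0.21 at 6 h and a change of 0.13 to 1 h, and element 2007 had a change of -0.15 from 1 h to 6 h. On slides with npq1 lor1 in channel 1, 1 of 3 passed at 1 h; there element 2429 had -0.060 in low light, -0.40 at 1 h and a change of 0.17 from 1 h to 6 h, while the differences were -0.068 (644 minus 2007), 0.075 (644 minus 2429) and 0.14 (2007 minus 2429).

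With the sign turned, 1 of 3 elements (2429) passed at 1 h and 1 at 6 h. Element 644 had 0.17 at 1 h, 0.14 at 6 h and a change of 0.012 to 1 h, and element 2007 had -0.011 in low light, 0.14 at 1 h and changes of 0.15 to 1 h and -0.22 from 1 h to 6 h. Element 2429 had 0.22 at 6 h and changes of 0.23 to 1 h and 0.050 to 6 h. The running median of neighbours was also subtracted, a setting chosen after seeing the data. Element 2429 again passed at 1 h (1 of 3) and at 6 h (1 of 3, 0.25). The same fit called 527 of 2272 elements at 1 h and 324 of 2139 at 6 h. In it, element 644 had -0.0050, 0.051 and 0.015 at the 3 time points and element 2007 had -0.15 in low light. With centred slides and the sign turned (also chosen after seeing the data), 1 of 3 passed at 1 h, where 604 of 2272 elements did. There element 644 had 0.036 at 1 h and 0.057 at 6 h. Element 2007 had -0.15 in low light and 0.0046 at 1 h, and element 2429 had 0.14 at 6 h. With the median of the copies (also chosen later) and the sign turned, 1 of 3 passed at 1 h, where 697 of 2272 elements did. There element 644 had 0.16 and element 2007 had 0.042. With that median on slides with wild type in channel 1, 0 of 3 passed at 1 h, where 180 of 2287 elements did. Element 644 had 0.15 on those slides.

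Leaving out 1 biological sample moved element 644 between -0.056 and 0.021 and element 2429 between -0.16 and 0.17 at 1 h. At 6 h element 644 moved between -0.37 and 0.038 and element 2429 between -0.022 and 0.0031. The change to 6 h of element 644 ran from -0.55 to -0.14. The change to 1 h of element 2429 ran from -0.27 to 0.062. The change from 1 h to 6 h ran from -0.36 to 0.056 for element 644 and from -0.18 to 0.17 for element 2429, and element 644 minus 2429 ran from -0.082 to 0.088. These ranges include leaving out biological sample 2 of 1 h and of 6 h together, an alternative chosen after seeing the data. A sample left alone is assumed to vary like the others.

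With the replicate block, no member's call changed (0 of 3 in low light). Over all elements the block raised the number called from 8 to 27 in low light, from 16 to 24 at 1 h and from 43 to 58 at 6 h. The changes called rose from 1 to 3 (low light to 1 h), from 1 to 13 (low light to 6 h) and from 4 to 16 (1 h to 6 h). With the numbers of 6 h crossed, the change from 1 h to 6 h gave 43. Over all alternatives that average both orientations at deposited signs, these 6 numbers ran from 0 to 114, 81, 301, 4, 60 and 60 in the same order; the 301 and both 60s came without biological sample 2 of 1 h and of 6 h. With all 4 spots required, 0 elements could be tested at 1 h, and the 3 elements only partly in low light.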
